A study of Mus musculus with 6 samples.

Results

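The genes described here are the 4 ID genes (Id1, Id2, Id3 and Id4) and 3 feedback genes of BMP signalling (Smad6, Smad7 and Bambi), in the developing soft palate, the muscular rear part of the palate. They were taken by name as direct BMP-SMAD target and feedback genes, and all 7 were found among the 21938 genes of the deposited expression table. RNA was sequenced from the soft palate of mouse embryos at E14.0, while the palate is still forming. The 3 control libraries (replicates 1, 2 and 3) are described in the extraction protocol as homozygous for a floxed β-catenin allele without Cre, although their genotype field reads wild type. The 3 mutant libraries (replicates 5, 6 and 7) carried the same floxed alleles together with Osr2-Cre, a recombinase expressed from the Osr2 gene, which is active in palatal mesenchyme. Deletion is therefore expected in cells with a history of Osr2 expression only, while the tissue piece also held epithelium, muscle, vessels, nerve and blood. The labels do not say whether a library is 1 embryo or a pool, so each p-value refers to the spread among libraries, which may be technical.

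BMP ligands bind paired serine-threonine kinase receptors, which phosphorylate SMAD1, SMAD5 and SMAD9. These enter the nucleus with SMAD4 and switch on a small set of immediate target genes. ID proteins are helix-loop-helix proteins that lack a DNA-binding region and hold E proteins in inactive dimers, which restrains tissue-restricted bHLH factors such as MyoD. SMAD6 and SMAD7 are inhibitory SMADs: SMAD6 acts mostly on the BMP branch, and SMAD7 on both the BMP and the TGF-β branch. BAMBI is a membrane protein that resembles a type I receptor without its kinase and dampens both branches. Bambi and Id2 are also known as targets of canonical Wnt signalling in other cells.

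All values are CPM, reads scaled to a common total of reads counted in genes, and low-value steps put the counted reads at 10018298 to 15089031 per library. Pearson correlations of log2(CPM + 1) across genes were 0.981 to 0.988 within groups and 0.9705 to 0.981 between them. Ctnnb1, the targeted gene, averaged 718 ± 59.0 CPM in controls and 600 ± 29.1 CPM in mutants (SD, n = 3 each; adjusted p = 0.183 in limma). Reads outside the deleted exons and from cells without Cre count in that value. Osr2 fell from 46.9 ± 11.2 to 16.1 ± 3.22 CPM (adjusted p = 0.0285). Its call was lost in 5 of the 6 fits without 1 library, with an adjusted p of up to 0.130 in limma. It held only without control replicate 2, and the log2 change of Osr2 ran from -1.68 to -1.33 over the 6 fits. Only the mutants carried Osr2-Cre, which is expressed from the Osr2 gene. Effects of that allele and of the deletion cannot be told apart, for Osr2 or for any other gene. Over all genes 105 were called at an adjusted p below 0.05 in limma, 43 higher and 62 lower in the mutant. With libraries scaled by their upper quartile it was 149, 82 higher and 67 lower. Leaving out control replicate 1 or 3, or mutant replicate 5 or 6, left 0 calls (3806 to 4100 genes had an unadjusted p under 0.05 in those limma fits), leaving out mutant replicate 7 left 2, and leaving out control replicate 2 gave 452.

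None of the 7 genes passed in limma, against 0.479% of all genes called (0.196% higher and 0.283% lower). Of the 7, 1 had an unadjusted limma p under 0.05, Id3, against 21.4% of all genes, and in 1, again Id3, the groups did not overlap, against 27.8% of all genes (17.1% higher and 10.8% lower). The 1 in 7 lies below the shares of all genes in either direction and above those of genes lower in the mutant, 8.07% for the unadjusted p and 10.8% for the overlap, and with a single member nothing is read from it. The fold estimates of 6 members lay below 1 and that of Smad6 above it. Their median log2 change was -0.10, beside 0.04 over all genes tested. In 6 of the 7 the 95% interval of the fold stayed within 1.5-fold in either direction, which was so for 44.9% of all genes; the interval of Id3 reached slightly past it. These intervals are on the log2(CPM + 1) scale, are not adjusted for the number of genes, and understate the change of low genes such as Bambi. In a piece of tissue, fewer cells of a type and less RNA per cell cannot be told apart.

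Short promoter stretches are shown for the members with a match, because they hold the letters that SMAD proteins are known to bind. In RefSeq's promoter windows (GRCm38.p6, 250 bases before to 50 after the start of transcription), 4 of the 7 members were examined, Id2, Id3, Id4 and Smad6. The motifs searched on both strands were GGCGCC, a GC-rich SMAD motif, GTCTAGAC, a palindrome of the SMAD box, and CAGAC, the core of that box. Capitals mark the match, positions count from the start of transcription, and each stretch is written on the strand of its gene.
Id2 at -231, chr12:25096306-25096335, minus strand: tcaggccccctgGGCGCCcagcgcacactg
Id4 at -148, chr13:48260956-48260985, plus strand: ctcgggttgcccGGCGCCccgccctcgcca
Smad6 at -4, chr9:64022045-64022074, minus strand: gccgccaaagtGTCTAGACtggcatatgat
Id3 at -167, chr4:136143643-136143672, plus strand: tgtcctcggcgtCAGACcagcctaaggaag
Id3 at -68, chr4:136143742-136143771, plus strand: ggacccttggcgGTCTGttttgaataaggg
In GENCODE, whose gene models start further upstream for some transcripts, the Id2 stretch lies in an intron, the Id3 and Smad6 stretches touch exons, and the Id4 stretch lies upstream of the gene. GGCGCC was present in 11.9% of all 32851 promoter windows, GTCTAGAC in 0.213% and CAGAC in 49.6%. The motifs were chosen after the promoters of the members were seen, so nothing is read from how common or rare they are. The Id2 and Id4 windows held neither of the other motifs, and the Id3 and Smad6 windows held only the one shown. A match is a description of the letters and not of binding, and nothing was measured at these positions.

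Id3 was the member in which the groups parted. The gene (chromosome 4, 136143497 to 136145755, GRCm38) encodes an ID protein made in many progenitor cells, in muscle precursors and in endothelium. Control replicates 1, 2 and 3 gave 30.6, 34.4 and 29.98 CPM, and mutant replicates 5, 6 and 7 gave 23.8, 24.6 and 24.7 CPM. Every mutant library lay below every control library, as in 10.8% of all genes. The means were 31.7 ± 2.43 and 24.4 ± 0.495 CPM (SD, n = 3 each). The log2 change was -0.36 ± 0.10 (SE), a fold of 0.778 with a 95% interval of 0.661 to 0.915. The unadjusted p was 0.00695 and the adjusted p in limma 0.110, so Id3 did not pass over all genes. It ranked 1388 by p in the table, and its adjusted p ranged from 0.101 to 0.315 over the 12 alternative settings. The 3 mutant values spread by only 2.03% (SD over mean), less than the 5.31% that counting error alone gives at its mean depth.

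Id1, the paralog most often read as a marker of BMP activity, overlapped between the groups (chromosome 2, 152736251 to 152737410, GRCm38). Control values were 31.3, 43.2 and 29.4 CPM, against mutant values of 26.9, 32.6 and 36.4 CPM. The highest library was control replicate 2 and the lowest mutant replicate 5, with the others intermingled. The means were 34.6 ± 7.51 and 32.0 ± 4.78 CPM, a log2 change of -0.10 ± 0.17 (SE; adjusted p = 0.761 in limma) with a fold interval of 0.716 to 1.21. Its direction rested on single libraries, since the log2 change was 0.06 without control replicate 2 and 0.01 without mutant replicate 5. The SD of the controls was 21.7% of their mean, the widest of the 7 genes in that group, against 4.87% from counting error.

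Id2, which is made in epithelium and mesenchyme of many organs, was the most abundant of the 7 in CPM (chromosome 12, 25093799 to 25097140, GRCm38). Control values were 67.7, 48.6 and 62.3 CPM, against mutant values of 53.0, 53.4 and 58.3 CPM. All mutant values fell between the lowest and the highest control. The means were 59.5 ± 9.82 and 54.9 ± 2.94 CPM, a log2 change of -0.10 ± 0.13 (SE; adjusted p = 0.675 in limma). Single controls moved that value in both directions: it was -0.24 without control replicate 2 (adjusted p = 0.192), -0.06 without control replicate 3 and -0.0058 without control replicate 1 (adjusted p = 0.986). Control replicate 2 had the lowest Id2 and the highest Id1 of all 6 libraries, so the paralogs departed from the other libraries in opposite directions there. Their profiles were among the least alike within the set, with a root mean square difference of 0.32 on the log2 scale between values centred on each gene's mean.

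Id4, best known from the nervous system, bone and mammary gland, also overlapped (chromosome 13, 48261228 to 48266026, GRCm38). Control values were 50.4, 56.2 and 56.3 CPM, against mutant values of 44.1, 49.3 and 55.8 CPM. Mutant replicates 5 and 6 lay below every control and mutant replicate 7 inside the control range. The means were 54.3 ± 3.37 and 49.7 ± 5.87 CPM, a log2 change of -0.13 ± 0.11 (SE; adjusted p = 0.535 in limma) with a fold interval of 0.769 to 1.09. It was -0.21 without mutant replicate 7 and -0.05 without mutant replicate 5. The genes A330033J07Rik and Gm49291, on the opposite strand, overlap Id4 over 1396 and 1364 bases in GENCODE. No source used here says that reads were counted by strand, so within the shared stretches reads of Id4 and of these genes cannot be told apart.

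Smad6, the inhibitory SMAD of the BMP branch, was the only member with a higher mean in the mutants than in the controls (chromosome 9, 63953076 to 64022059, GRCm38). Control values were 15.4, 15.1 and 13.9 CPM, against mutant values of 15.3, 15.1 and 17.5 CPM. Mutant replicates 5 and 6 lay within the control range and mutant replicate 7 above it. The means were 14.8 ± 0.782 and 16.0 ± 1.34 CPM, a log2 change of 0.10 ± 0.12 (SE; adjusted p = 0.682 in limma) with a fold interval of 0.880 to 1.30. The log2 change was 0.03 without mutant replicate 7 and 0.06 without control replicate 3. The palindrome printed above, at its start of transcription, thus belongs to a member whose values overlapped between the groups.

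Smad7, the inhibitory SMAD shared with the TGF-β branch, gave control values of 29.8, 33.8 and 32.2 CPM and mutant values of 28.8, 30.03 and 32.3 CPM. The ranges overlapped, with mutant replicate 5 lowest and control replicate 2 highest. The means were 31.9 ± 2.06 and 30.4 ± 1.78 CPM, a log2 change of -0.07 ± 0.10 (SE; adjusted p = 0.737 in limma) and a fold interval of 0.811 to 1.12. It was -0.12 and -0.11 without control replicate 1 and mutant replicate 7, and -0.03 without control replicate 2 or mutant replicate 5. Smad7 varied least among the 7 over all 6 libraries, with a root mean square deviation of 0.08 from its mean on the log2 scale.

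Bambi, the pseudoreceptor, had the lowest CPM of the 7. Control values were 7.76, 7.69 and 5.76 CPM, against mutant values of 9.04, 5.25 and 6.69 CPM. Both the highest and the lowest library were mutants. The means were 7.07 ± 1.13 and 6.99 ± 1.92 CPM, a log2 change of -0.03 ± 0.21 (SE; adjusted p = 0.950 in limma), and its sign turned when control replicate 1 (0.03), control replicate 2 (0.03) or mutant replicate 6 (0.13) was left out. Bambi rested on an estimated 69 to 111 reads per library, for which counting error alone is 10.6%. Its fold interval of 0.698 to 1.37 is the widest of the set, so changes within that range, in either direction, were not told apart from no change. The other 6 members had an estimated 151 to 879 reads.

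**Figure D1:**
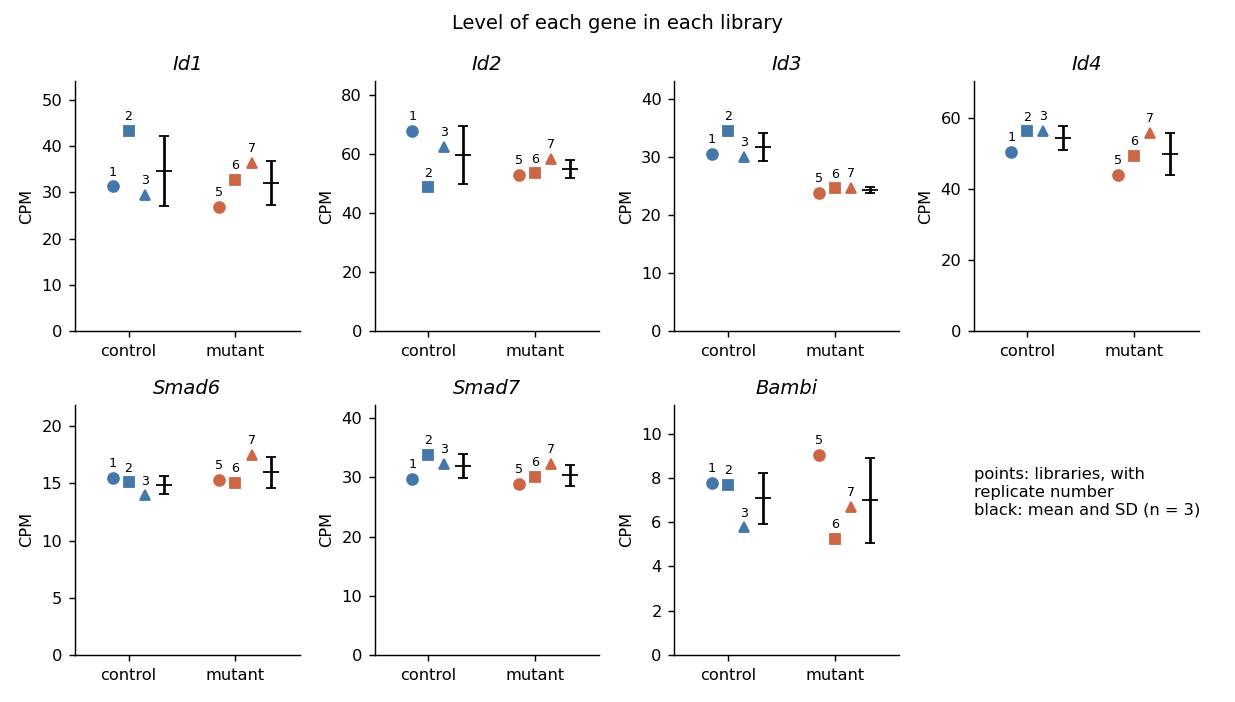
CPM of each of the 7 genes (vertical axes, starting at 0) in the 3 control and 3 mutant libraries, each point a library with its replicate number, with the mean and SD in black. Id3 is the only gene whose mutant values (23.8 to 24.7 CPM) all lie below its control values (29.98 to 34.4 CPM).

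**Figure D2:**
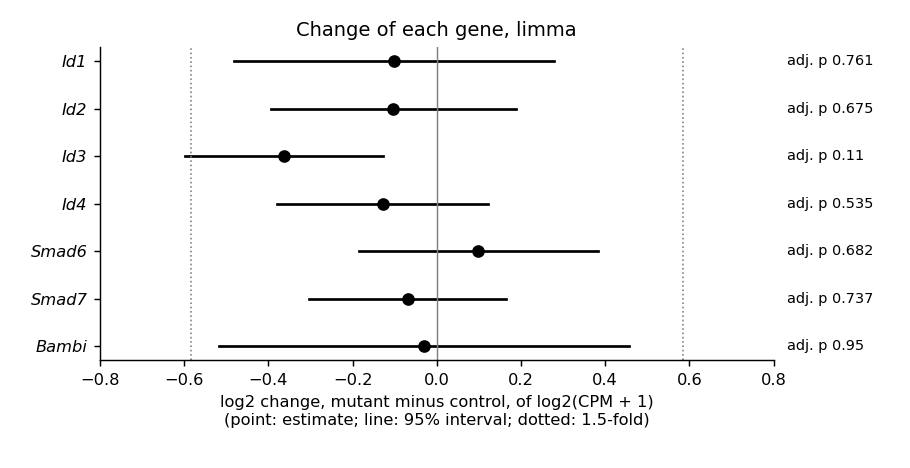
Log2 change of each gene, mutant minus control, of log2(CPM + 1) in limma, with the 95% interval as a line and the adjusted p over all genes at the right. The interval of Id3 is the only one that leaves out 0, and the dotted lines mark 1.5-fold.

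Between genes, levels were compared per length, as CPM per kb of merged GENCODE exons. In controls Id1 stood at 29.8 ± 6.48 CPM per kb, Id2 at 24.4 ± 4.03, Id3 at 17.7 ± 1.35 and Id4 at 14.1 ± 0.877 (SD, n = 3). Smad7 followed at 7.07 ± 0.455, Smad6 at 4.62 ± 0.244 and Bambi at 1.39 ± 0.223 CPM per kb. Every ID gene thus stood above every feedback gene in every library. Of neighbours in this order, the control ranges of Id1 and Id2 overlapped, and the other neighbouring pairs did not. The order of the mutant means was the same, with Id3 at 13.6 ± 0.276 and Id4 at 12.9 ± 1.53 CPM per kb, and there the ranges of Id1 and Id2 and those of Id3 and Id4 overlapped. The merged exons range from 1.16 kb for Id1 to 5.07 kb for Bambi, and a length that counts unused exons lowers the value of a gene.

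Within the summed level of the ID genes per length, the Id3 portion did not overlap between the groups, and those of Id1, Id2 and Id4 did. The Id3 portion is computed from the same Id3 values, which did not overlap either, so it is not a separate observation. Id3 made up 20.1, 21.1 and 20.4% of the summed CPM per kb of the 4 ID genes in the controls, and 19.1, 17.9 and 16.5% in the mutants. Id4 held 15.4 to 17.8% in controls and 16.4 to 17.3% in mutants. Id1 and Id2 varied most among the controls, at 30.8 to 40.9% and 21.9 to 32.7%, and in mutants lay at 33.3 to 37.5% and 28.6 to 31.2%. The sum itself, per length, was 84.9, 91.0 and 82.2 CPM per kb in controls and 69.6, 76.5 and 83.6 CPM per kb in mutants, values that overlapped. In plain CPM, where the longer genes weigh more, the 4 ID genes summed to 178 to 182 in controls and to 148, 160 and 175 in mutants, without overlap. Of single genes, 10.8% were lower in the mutant without overlap. Id3 is part of this sum and Id1, Id2 and Id4 each overlapped, so the sum is not an observation apart from Id3. The 3 feedback genes summed to 51.9 to 56.6 and 50.3 to 56.5 CPM. Per length, Smad7 stood at 1.53 ± 0.146 times Smad6 in controls and 1.35 ± 0.0543 times in mutants, with overlapping values.

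**Figure D3:**
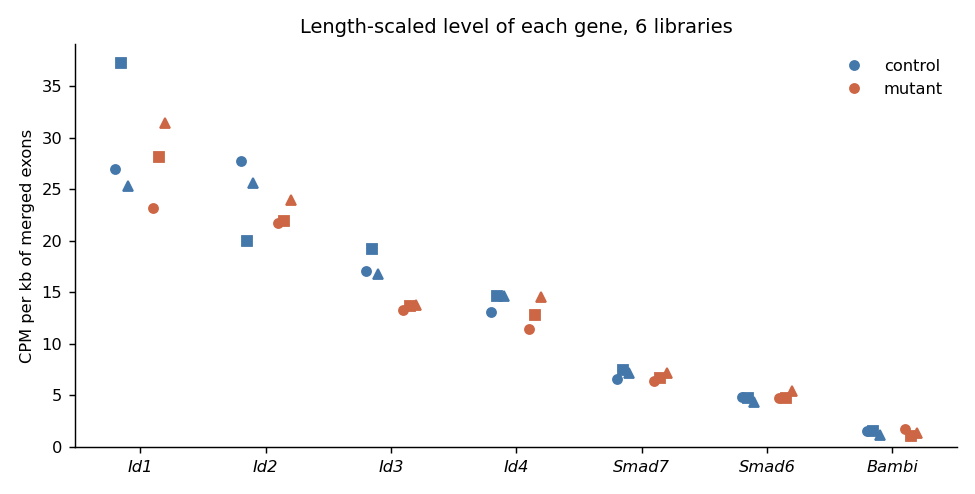
CPM per kb of merged exons (vertical axis, linear from 0) for the 7 genes in descending order of their control mean, each point 1 of the 6 libraries. The ID genes lie at 11.4 or more in every library and the feedback genes at 7.48 or less.

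Profiles across the 6 libraries were compared between the members. The closest pair was Id4 and Smad7, with a root mean square difference of 0.06 between centred log2 values, followed by Smad6 and Smad7 at 0.12. Id1 and Bambi were the least alike at 0.33. Genes that vary little also differ little by this measure, so the order partly follows how much each gene varied. Smad6 and Smad7 deviated from their own means by a root mean square of only 0.09 and 0.08, and Id1 and Bambi by 0.21 and 0.23. Mutant replicate 5 had the lowest Id1, Id3, Id4 and Smad7 of all 6 libraries and at the same time the highest Bambi. Among 10043 other named genes with a mean of at least 10 CPM, the nearest to Id3 were Tpi1, a glycolytic enzyme (139.9 and 109.9 CPM in control and mutant), at 0.02 and Hdac11, a histone deacetylase, at 0.03. The nearest to Id1 were Cyb5r1 and Babam2 (both 0.05), to Id2 Tfpt (0.04) and Ppfia2 (0.05), and to Id4 Polr3c (0.02) and Fcf1 (0.03). For Smad6 they were Faf2 (0.02) and Sulf1 (0.03), for Smad7 Prep and Stk11 (both 0.02), and for Bambi Slc18b1 and Slco3a1 (both 0.07). These likenesses rest on 6 libraries and are given as a description.

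Upstream of the members, genes of BMP signalling were read from lists chosen by role. None of the 11 ligands measured passed in limma, and 1 had an unadjusted p under 0.05. That was Bmp4, a ligand of palatal mesenchyme and epithelium, at 20.1 ± 4.14 and 14.6 ± 0.618 CPM (adjusted p = 0.173), followed by Bmp3, an atypical ligand of the family, at 29.1 ± 13.1 and 17.7 ± 2.72 CPM (adjusted p = 0.243). Of 11 receptors and coreceptors none passed and 1 had an unadjusted p under 0.05, the coreceptor Rgmb at 68.4 ± 9.66 and 46.8 ± 14.6 CPM (adjusted p = 0.153). Its paralog Rgma was at 64.3 ± 11.3 and 52.2 ± 3.13 CPM (adjusted p = 0.268). Among 12 transducers and regulators at the SMAD level none passed and 1 had an unadjusted p under 0.05. It was Smad1, which carries the BMP signal to the nucleus, at 60.9 ± 4.29 and 50.4 ± 2.57 CPM (adjusted p = 0.160), while Smad9 stood at 17.8 ± 2.26 and 22.0 ± 4.005 CPM (adjusted p = 0.322). The median log2 change was -0.15 for the ligands, -0.09 for the receptors and -0.02 for the SMAD-level genes. Without control replicate 2 the log2 change moved from -0.61 to -0.28 for Bmp3, from -0.42 to -0.27 for Bmp4 and from -0.28 to -0.18 for Rgma, and without mutant replicate 5 that of Smad9 moved from 0.29 to 0.15.

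The secreted antagonists and modulators, which hold BMP ligands away from their receptors or present them, had a median log2 change of -0.41, beside 0.04 over all genes. None of 13 passed in limma. An unadjusted limma p under 0.05 was found for 6, all with lower means in the mutant, against 8.07% of all genes in that direction. Of the 13, 12 had a log2 change below 0, against 43.9% of all genes. The list was chosen with earlier results of these data known, so these shares only describe it. Nbl1, a BMP antagonist, stood at 40.4 ± 2.87 and 29.6 ± 1.69 CPM (adjusted p = 0.0788). Fstl1, a secreted glycoprotein of the follistatin family, stood at 1000.2 ± 137.4 and 740.2 ± 49.4 CPM (adjusted p = 0.113). Of 9 other BMP-responsive genes none passed and 2 had an unadjusted p under 0.05, Tbx2 at 42.4 ± 6.23 and 28.9 ± 4.59 CPM (adjusted p = 0.104) and Tbx3 at 70.1 ± 14.3 and 53.5 ± 4.801 CPM (adjusted p = 0.202), both T-box repressors. The median of that list was 0.14, while its summed level was lower in every mutant (143 to 172 CPM) than in any control (181 to 184 CPM). Tbx2 and Tbx3 had the highest means of the list and weighed most in that sum, whereas 6 of the 9 genes had a log2 change above 0. Of 6 TGF-β-responsive genes none passed and 1, the matrix protein gene Tgfbi, had an unadjusted p under 0.05 (115.7 ± 21.2 and 78.7 ± 11.4 CPM, adjusted p = 0.106), with Pmepa1, an inhibitor of TGF-β signalling, at 74.7 ± 8.68 and 64.9 ± 4.84 CPM (adjusted p = 0.339) and a list median of -0.21. Without control replicate 2 the log2 change moved from -0.37 to -0.23 for Tbx3 and from -0.20 to -0.12 for Pmepa1.

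The bHLH proteins on which ID proteins act were read next. None of the 3 E proteins (Tcf3, Tcf4 and Tcf12), the direct partners of ID proteins, passed in limma or had an unadjusted p under 0.05, with Tcf3 at 187.9 ± 9.97 and 171.7 ± 11.5 CPM (adjusted p = 0.425) and Tcf4 at 414.4 ± 53.4 and 378.8 ± 23.1 CPM (adjusted p = 0.562). The log2 change of Tcf4, -0.12, was -0.05 without control replicate 1 and -0.23 without control replicate 2, and that of Tcf3, -0.13, was -0.08 without mutant replicate 5. Among 16 tissue-restricted bHLH factors 2 fell and 0 rose, and 6 had an unadjusted p under 0.05, all with lower means in the mutant (median log2 change -0.42). The called genes were the myogenic factors Myog, from 64.1 ± 15.3 to 21.6 ± 1.42 CPM (adjusted p = 0.0276), and Myod1, from 26.2 ± 6.93 to 9.63 ± 0.672 CPM (adjusted p = 0.0352). Both calls were lost in 5 of the 6 fits without 1 library and held only without control replicate 2. The adjusted p in limma reached 0.130 for Myog and 0.151 for Myod1 in these fits. Over the 6 fits the log2 change ran from -1.71 to -1.37 for Myog and from -1.54 to -1.17 for Myod1. Of 8 Wnt feedback targets none passed and 3 had an unadjusted p under 0.05, among them the Wnt inhibitors Nkd1 at 35.9 ± 3.29 and 22.7 ± 1.29 CPM (adjusted p = 0.0513) and Axin2 at 53.9 ± 6.86 and 37.1 ± 6.81 CPM (adjusted p = 0.104), with a list median of 0.03. Nkd1 passed when genes under a mean of 1 CPM were left out (adjusted p = 0.0493) and with robust fitting (adjusted p = 0.0454).

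**Figure D4:**
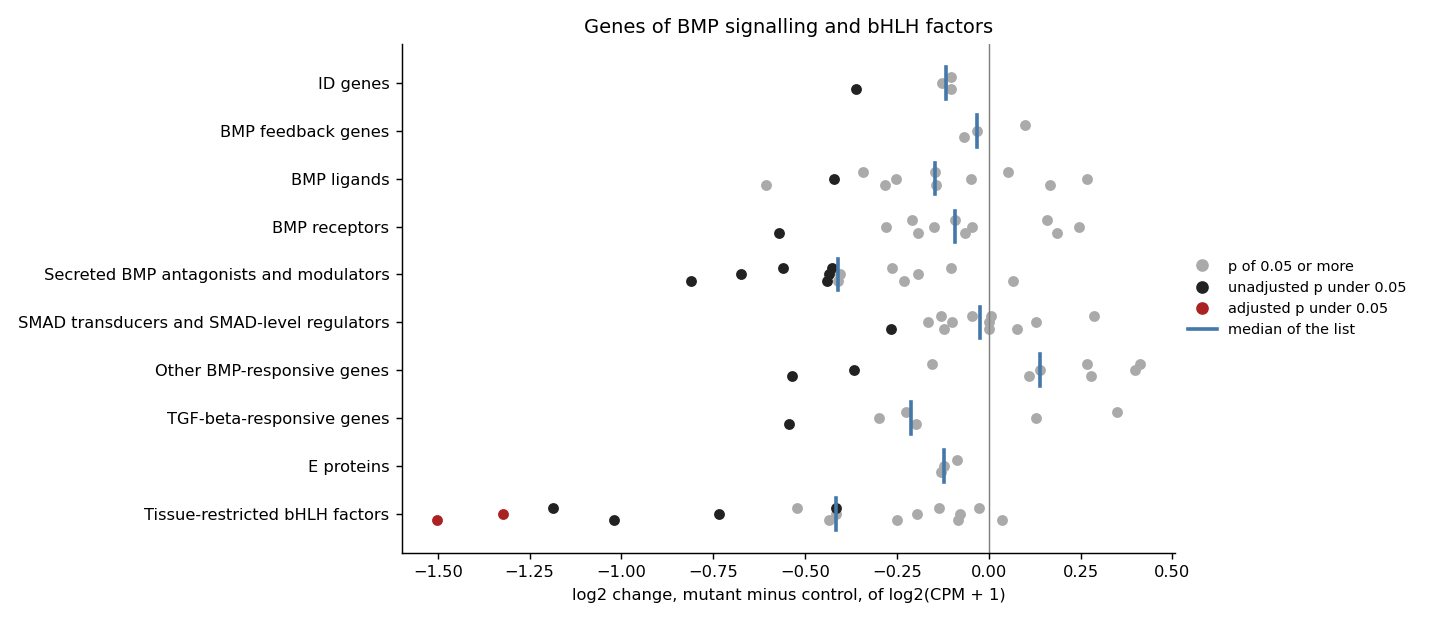
Log2 change, mutant minus control, of log2(CPM + 1) for each measured gene (point) of 10 lists, with the list median as a blue bar, grey for an unadjusted p of 0.05 or more, black below it and red for an adjusted p below 0.05. The ID and feedback genes lie between -0.36 and 0.10, and the red points are Myog and Myod1.

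Cell types that are known to express the members were followed by markers. Palatal mesenchyme markers, of the tissue named in the labels, were all detected and summed to 2437 to 3388 CPM in controls and 2260 to 3072 CPM in mutants, with 1 of 12 called (Osr2, lower). Of the 12, 10 had a log2 change below 0 (median -0.31), and 4 an unadjusted p under 0.05, all lower: Osr2 and, named after their values were seen, Mn1, Barx1 and Twist1. Col1a2, also named so, held most of the sum, at 1638 ± 359 and 1710 ± 329 CPM. Its own values overlapped between the groups, so the overlap of the sums reflects mainly Col1a2 and does not describe the other markers. Endothelial markers, of cells rich in Id1, Id3 and Smad6, summed to 257 to 400 and 298 to 416 CPM, with 0 of 14 called and 0 at an unadjusted limma p under 0.05. Skeletal muscle markers summed to 7175 to 15144.5 and 4790 to 5916 CPM, with 8 of 14 lower and called and all 14 lower at an unadjusted p under 0.05. Id3 and the muscle sum were thus both lower in every mutant library than in any control, and the part of muscle in the Id3 value was not tested. Within controls, the library with the lowest muscle sum, control replicate 2, had the highest Id3 and Id1. It is a single library and also had the highest epithelial sum of the controls (2021 against 1242 and 1782 CPM), so nothing is read from it.

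The other marker lists held 1 further called gene, in the smooth muscle and pericyte list. That list summed to 453 to 521 and 285 to 333 CPM, with 3 of 9 lower at an unadjusted p under 0.05 and 1 called, Acta2, the actin of smooth muscle, which fell from 156.9 ± 43.9 to 56.8 ± 5.42 CPM (adjusted p = 0.0296) and was named after its values were seen. Erythroid markers summed to 1595 to 4728 and 775 to 1362 CPM (0 of 8 called, 7 lower at an unadjusted limma p under 0.05), and multiciliated epithelium markers to 104 to 306 and 332 to 454 CPM (0 of 11 called, 9 higher at an unadjusted limma p under 0.05). Of the remaining lists, none had a called gene, and those at an unadjusted limma p under 0.05 were 2 of 13 epithelial, 1 of 10 neuron, 0 of 8 Schwann cell and glia, 1 of 10 macrophage, 2 of 7 osteoblast and 2 of 8 cartilage markers. Neuron markers, of cells that can express Id2 and Id4, spread widely, at 574 to 1072 CPM in controls and 207 to 920 CPM in mutants. The smooth muscle and erythroid sums, like Id3, were lower in every mutant library than in any control, but without Acta2 the smooth muscle sums overlapped (278 to 359 and 228 to 280 CPM). In contrast, the multiciliated sum was higher in every mutant library. Some fits that left out a library called no gene over the whole table. No marker could be called in them, so they say nothing further about these lists. The parts of these cell types in the levels of the members were not tested.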

How the data were processed

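RNA of 3 control and 3 mutant soft palate samples was sequenced. The submitters' processing notes list STAR, without a version, and the mm10 build; how reads were assigned to genes was not given. The deposited values are CPM with a constant of 0.0001 added by the authors, as found from the values, and it was removed here. A second deposited table holds 2432 genes, 11.1% of all, at identical CPM values, and it has none of the 7 genes. The smallest ratio of group means in that table, taken in either direction, was 1.50, and all members had a smaller one. Only 63.7 to 68.0% of low values came within 0.02 of a whole read, so reads per gene are estimates, no count model was fitted, and counting errors cover counting only.

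The test was limma 3.58.1 (R 4.3.3), mutant minus control, on log2(CPM + 1) over all 21938 genes, with an intensity trend, no filter on low values and Benjamini-Hochberg adjustment (threshold 0.05). It was checked on simulated data. No batch is given and no block was used. Genes named are the members, Ctnnb1, Osr2, called genes and the 2 smallest p of each list that is not of cell type markers, and the 2 genes nearest each member. Members and lists were chosen with earlier results of these data known, and the promoter motifs after the promoters were seen. Positions and exon lengths are from GENCODE vM21 (GRCm38, the assembly mm10 names). Bmp8a, Hand1, Neurog2, Sp5 and 3 markers were not analysed here, and 1 further antagonist gene, in none of the counts of the list, is not reported here. Alternatives changed the pseudocount (0.1), a filter (mean of 1 CPM), the scaling and the prior variance, and left out each replicate.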

Additional observations from a re-analysis of the deposited data

How the results depend on the processing

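None of the 7 genes was called under any of the 12 alternatives, and Id2, Id3, Id4, Smad6 and Smad7 kept their direction in all of them. Id3 had an unadjusted p of 0.00682 to 0.0220 throughout. With 1 replicate left out, the log2 change ranged from -0.21 to 0.0643 for Id1, from -0.21 to 0.13 for Bambi and from -0.24 to -0.0058 for Id2. The count of called genes, 105, was 0 with no trend in the prior variance (4516 had an unadjusted limma p under 0.05), 174 with robust fitting and 0 to 452 with 1 replicate left out (2916 to 5002 under the same unadjusted limit). It was 95, 135, 114 and 149 with a pseudocount of 0.1, a filter on the mean, median-ratio scaling and upper-quartile scaling. The scalings moved the median log2 change of all genes from 0.04 to at most 0.07. Of 324 values for the 27 members and named genes, 299 kept their direction and side of the threshold, 18 lost a call (Osr2, Myod1 and Myog), 2 gained one (Nkd1) and 5 turned, all of Id1 and Bambi. With 3 libraries per group the fold interval of Id1, for example, ran from 0.716 to 1.21. No paired analysis was possible because the groups share no replicate number.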
